A study of Homo sapiens with 7 samples.

Results

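The clustered protocadherin genes are adhesion receptor genes that lie in tandem on chromosome 5 in 3 subclusters, named α, β and γ. They were chosen by name, as all protein-coding RefSeq genes whose symbol begins with PCDHA, PCDHB or PCDHG, which gave 53 of 19974 genes (15 α, 16 β and 22 γ). Open chromatin was mapped by ATAC-seq, an assay where Tn5 transposase inserts sequencing tags into accessible DNA, in neurons made from the established human midbrain cell line LUHMES, labelled wild type. All cells were differentiated for 6 days in medium with tetracycline, dbcAMP and GDNF and are labelled dopaminergic neurons. The 4 treated libraries (differentiations 6, 7, 8 and 9) received antimycin A at 25 µM, a blocker of respiratory complex III, and oligomycin at 10 µM, a blocker of the mitochondrial ATP synthase, for 8 h. The 3 vehicle libraries (differentiations 6, 7 and 8) received DMSO. The study asked which chromatin is open under mitochondrial stress and in control cells.

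As background, each α and γ gene has its own promoter and first exon, which is spliced to exons shared by the whole subcluster, while each β gene is a gene of a single exon. Neurons switch on a few of the many alternate promoters by chance, and this gives each cell its own set of surface adhesion molecules. The C-type genes at the ends of the α and γ subclusters are known for expression that does not follow this random choice. Promoter choice depends on DNA methylation and on CTCF and cohesin, which fold chosen promoters to distant enhancers, and many of these promoters share a conserved sequence element with the core CGCT.

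Each library is a list of accessible regions, so a gene has either a region or none, and a region has the fold enrichment over background that the peak caller gave it. The lists held 188516, 248900, 55533 and 53063 regions in treated libraries 6, 7, 8 and 9, and 53398, 32828 and 159902 in vehicle libraries 6, 7 and 8. Equal-size lists therefore kept the 32828 regions of highest fold in each library. The count of fragments stacked at the weakest kept region still ran from 5 in vehicle 7 to 41 in treated 7. The median width of kept regions ran from 319 bp in vehicle 7 to 1450 bp in treated 7, so the lists match in number and not in depth. Marker genes gave a mixed check of the label. Of 12 pan-neuronal genes, 9 to 11 had a region at a gene end in each equal-size list, and of 13 dopaminergic genes, 5 or 6 had one. Over all genes, the mean share with such a region was 62.4% in treated and 56.1% in vehicle libraries. The pan-neuronal genes thus lay above the share of all genes in every list, and the dopaminergic genes lay below it. The dopaminergic genes PITX3, EN1 and NR4A2 had one in all 7 lists, and TH, DDC, SLC18A2, ALDH1A1 and LMX1B in none. The labels number the differentiations and say nothing more of how separate they were, so p-values measure only the spread between these libraries, which may be technical.

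The promoters of 6 members carry the contrast described below and are printed here from RefSeq (GRCh38.p14, the build of the files), each as the 250 bases before the gene start on the + strand, with CGCT in capitals. The C-type genes PCDHAC1 (chr5:140926049-140926298), PCDHAC2 (chr5:140966226-140966475) and PCDHGC3 (chr5:141475716-141475965) had a region at their start in all 7 libraries. PCDHGC4 (chr5:141484780-141485029) is a C-type gene that did not, and PCDHA8 (chr5:140840937-140841186) and PCDHB3 (chr5:141100223-141100472) are alternate genes reached in the longer lists.
PCDHAC1: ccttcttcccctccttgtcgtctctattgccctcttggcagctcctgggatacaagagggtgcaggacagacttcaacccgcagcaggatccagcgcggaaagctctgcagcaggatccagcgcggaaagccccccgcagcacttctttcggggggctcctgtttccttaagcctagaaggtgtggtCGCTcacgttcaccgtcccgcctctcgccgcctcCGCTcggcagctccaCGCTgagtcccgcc
PCDHAC2: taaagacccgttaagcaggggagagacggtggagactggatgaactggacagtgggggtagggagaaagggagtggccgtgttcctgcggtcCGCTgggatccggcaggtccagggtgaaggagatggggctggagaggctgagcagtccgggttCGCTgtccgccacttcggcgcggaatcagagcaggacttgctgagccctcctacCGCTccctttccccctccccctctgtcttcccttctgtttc
PCDHGC3: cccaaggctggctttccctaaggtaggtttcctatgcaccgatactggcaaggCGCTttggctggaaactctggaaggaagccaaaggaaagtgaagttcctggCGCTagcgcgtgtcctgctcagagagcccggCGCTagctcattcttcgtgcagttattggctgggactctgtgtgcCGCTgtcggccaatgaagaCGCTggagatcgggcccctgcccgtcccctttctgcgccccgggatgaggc
PCDHGC4: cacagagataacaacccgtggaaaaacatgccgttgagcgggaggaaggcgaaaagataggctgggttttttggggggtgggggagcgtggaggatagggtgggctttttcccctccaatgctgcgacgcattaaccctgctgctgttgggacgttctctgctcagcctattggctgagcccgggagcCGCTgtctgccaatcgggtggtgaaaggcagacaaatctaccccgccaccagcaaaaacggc
PCDHA8: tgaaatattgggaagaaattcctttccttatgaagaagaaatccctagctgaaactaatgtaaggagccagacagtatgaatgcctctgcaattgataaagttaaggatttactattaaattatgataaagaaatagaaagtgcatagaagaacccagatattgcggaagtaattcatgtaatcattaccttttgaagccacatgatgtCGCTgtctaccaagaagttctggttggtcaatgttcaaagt
PCDHB3: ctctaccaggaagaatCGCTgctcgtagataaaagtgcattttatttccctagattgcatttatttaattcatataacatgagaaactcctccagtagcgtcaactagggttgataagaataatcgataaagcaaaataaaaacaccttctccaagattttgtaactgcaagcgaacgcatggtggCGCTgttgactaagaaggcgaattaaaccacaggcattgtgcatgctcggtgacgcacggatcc

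In treated and vehicle libraries, most clustered protocadherins had no region at their starts in the equal-size lists, which is called closed here. A closed start is one not detected among the strongest regions of a list, and it may be open in some cells. In the equal-size lists, 3 of the 53 members had a region within 1000 bp of their start in every treated library, against 4, 3 and 3 in vehicle libraries 6, 7 and 8. The difference of means was -0.333 members, smaller than the spread among the vehicle libraries (SD 0.577, n = 3). The same 3 genes, PCDHAC1, PCDHAC2 and PCDHGC3, were present in all 7 libraries. PCDHA13 was the fourth member in vehicle 6, the only member in a larger share of vehicle libraries (5.67% of genes tested were), and none was in a larger share of treated libraries (25.5% were). The remaining 49 members (92.5%) had no region in any library. Across the 15818 genes whose start could be placed, 30.8% had none, and the number with a region was 9882 ± 284 (SD, n = 4) in treated and 8957 ± 373 (SD, n = 3) in vehicle libraries.

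No member had a start region in all treated and no vehicle libraries, a pattern shown by 94 genes, or 0.858% of the 10952 genes with a start region in at least 1 library. None had the opposite pattern, which 3 genes showed (0.0274%). In Fisher's exact test on presence, adjusted by the Benjamini-Hochberg method over all genes, 0 genes passed 0.05, and those 94 and 3 genes reached the smallest p that 4 against 3 libraries allow, 0.0286. Presence in all 7 libraries, shown by 3 of the 4 members that entered that test, was common among the genes tested (68.8%). Over all 7 lists, 7534 other genes shared the pattern of PCDHAC1, and 49 shared the pattern of PCDHA13, present in vehicle 6 alone.

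**Figure D1:**
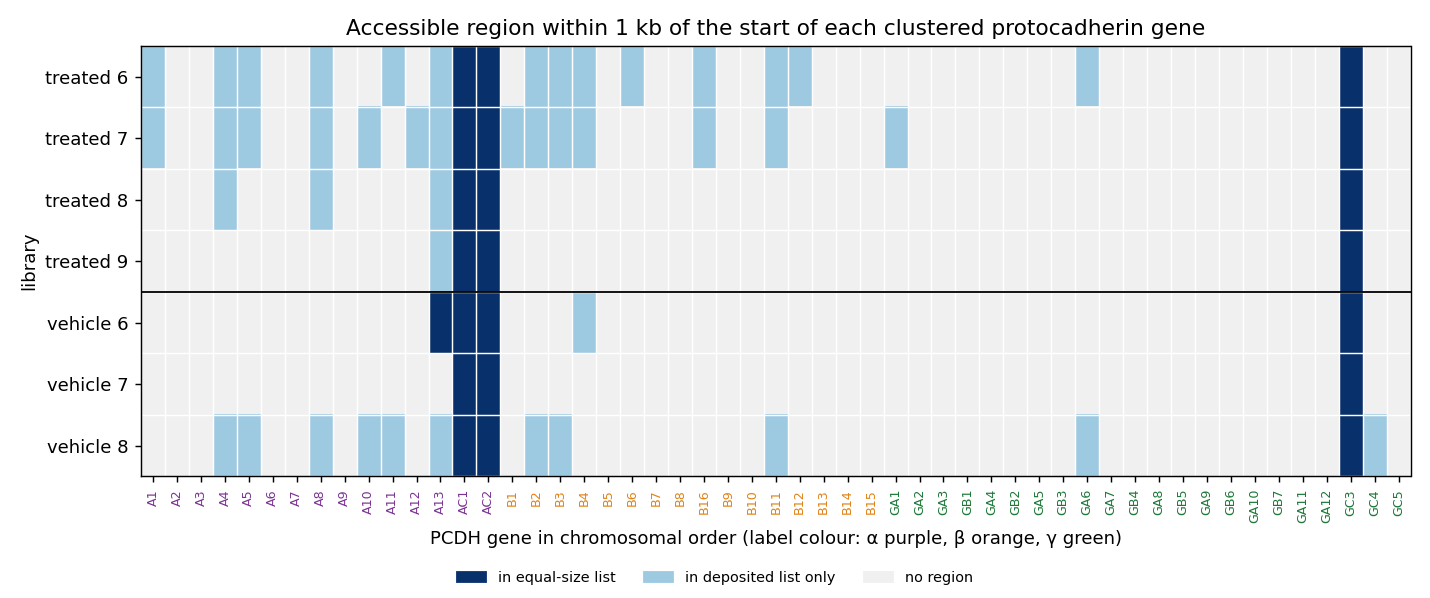
Presence of an accessible region within 1 kb of the start of each of the 53 genes (columns, in chromosomal order) in each library (rows). Dark squares are in the equal-size list, pale squares only in the longer deposited list, and grey squares have no region. PCDHAC1, PCDHAC2 and PCDHGC3 are dark in all 7 rows, and pale squares are most frequent in treated 6, treated 7 and vehicle 8, the libraries with the longest lists.

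PCDHAC1 encodes protocadherin αC1, and its gene spans chr5:140926299-141012347. Its start region had a fold over background of 39.6, 25.9, 10.5 and 10.8 in treated libraries 6 to 9 and of 20.1, 14.3 and 37.8 in vehicle libraries 6 to 8. Because fold is not comparable between libraries of different depth, regions were also compared by rank within the equal-size list, where 1 is the largest fold. PCDHAC1 stood at ranks 1843, 2368, 4735 and 5042 in treated and 1445, 1517 and 2033 in vehicle libraries. The ranks overlapped between the groups (exact two-sided permutation test, p = 0.171, and 0.62 after Benjamini-Hochberg adjustment over 10952 genes). It was the most strongly opened member start in 6 libraries, and in treated 8 it tied with PCDHGC3 at a fold of 10.5.

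The position of highest signal within the PCDHAC1 region differed between the groups. The summit lay 142, 191, 145 and 135 bp after the gene start in treated libraries 6 to 9, and 345, 317 and 339 bp after it in vehicle libraries 6 to 8. The nearest treated and vehicle summits were 126 bp apart. This comparison was chosen after the values were seen. Of the 7535 genes with a start region in all 7 libraries, 6.83% had summits that did not overlap between the groups, and 0.464% had them apart by at least as much as PCDHAC1. The other 2 such members did not show it: PCDHAC2 summits lay 235, 235, 219 and 229 bp after the start in treated and 17, 156 and 228 bp in vehicle libraries, where 228 falls within the treated range. PCDHGC3 summits lay between -75 and 120 bp in treated and between -78 and -22 bp in vehicle libraries.

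PCDHAC2 encodes protocadherin αC2, at chr5:140966476-141012347. Its start region stood at ranks 8102, 5917, 7480 and 6790 in treated and 3757, 3342 and 5989 in vehicle libraries, with treated 7 and vehicle 8 the only pair out of order. The difference did not pass the test (exact two-sided permutation test, p = 0.0571, 0.461 after Benjamini-Hochberg adjustment). Its fold was 21.7, 18.2, 8.81 and 9.61 in treated and 14.1, 11.2 and 24.7 in vehicle libraries, and these ranges overlapped.

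PCDHGC3 encodes protocadherin γC3, at chr5:141475966-141512975, and it was the member whose start stood nearer the top of the list in every treated library. It stood at ranks 8197, 8119, 4594 and 9152 in treated and 17227, 14608 and 16583 in vehicle libraries, so the groups did not overlap. The mean ranks were 7516 ± 2003 (SD, n = 4) and 16139 ± 1365 (SD, n = 3). The exact two-sided permutation test gave p = 0.0286, the smallest it can give, and 0.393 after Benjamini-Hochberg adjustment over 10952 genes. Such a separation toward treated libraries was found for 726 of those genes (6.63%), and toward vehicle libraries for 71 (0.648%), and 0 genes passed after adjustment.

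Other measures of the PCDHGC3 region separated the groups in part. The region was 844, 1261, 1178 and 992 bp wide in treated and 352, 262 and 586 bp wide in vehicle libraries, again without overlap. The share of all genes whose widths separate in this way was not counted. All regions of an equal-size list had a median width of 484 to 1450 bp in treated and 319 to 868 bp in vehicle libraries, and these overlap. The fragments stacked at its summit numbered 68, 107, 18 and 20 in treated and 9, 9 and 34 in vehicle libraries, where 9 fragments have an exact 95% Poisson interval of 4.12 to 17.1 for counting error only. Divided by the background of the library, that gave an enrichment of 31.2, 17.8, 22.1 and 13.3 in treated and 18.3, 14.7 and 23.7 in vehicle libraries, and the groups overlapped on this measure (exact two-sided permutation test, p = 0.686). Within each library, the PCDHGC3 fold was 0.548, 0.595, 1.0 and 0.778 of the PCDHAC1 fold in treated and 0.333, 0.434 and 0.381 in vehicle libraries, a ratio chosen after the values were seen. How many genes separate on such a ratio was not counted either. The ranks thus differed without overlap, and the enrichment over background did not.

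Among markers of other cell types, the mesenchymal and endothelial list moved in the same direction as the PCDHGC3 rank. Of its 9 genes, 5, 5, 4 and 5 had an end region in treated and 3, 2 and 3 in vehicle libraries of the equal-size lists, with VWF, CDH5, PECAM1 and COL1A2 at 0 in each. Over all genes the share with an end region was likewise higher in treated libraries, 62.4% against 56.1%, without overlap between the groups. Progenitor and cycling markers had 5, 6, 5 and 6 of 7 in treated and 2, 2 and 6 in vehicle libraries, and glial markers 6, 7, 3 and 4 of 10 against 2, 2 and 6. Their part in the result was not tested.

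**Figure D2:**
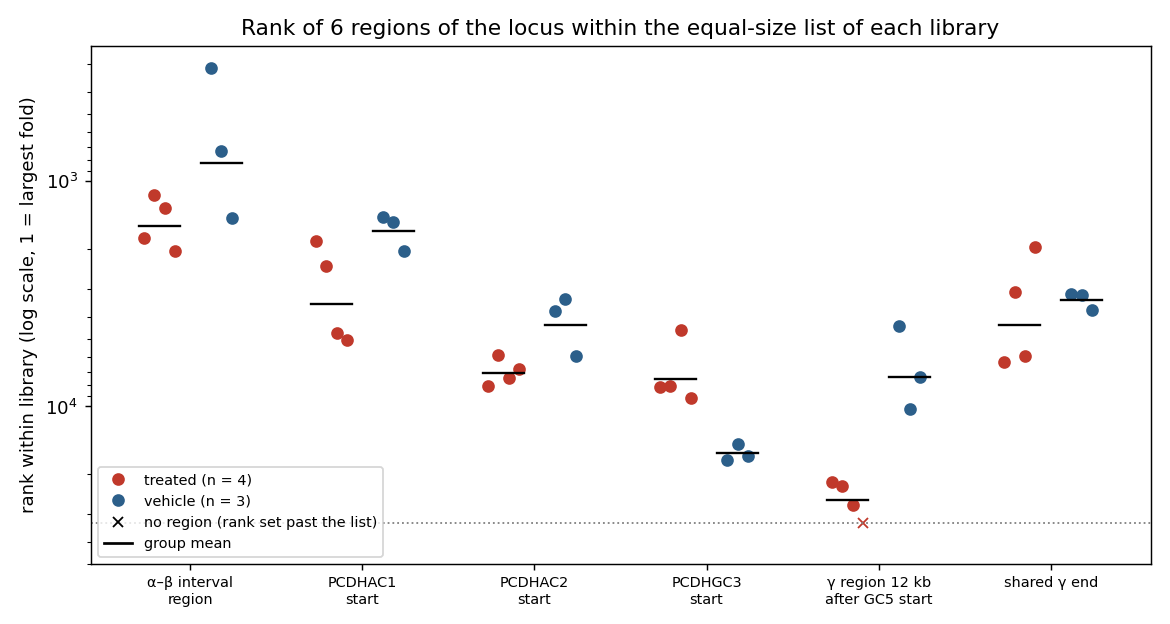
Rank of 6 regions of the locus within the equal-size list of each library, on a log axis with 1 at the top. Points are libraries (4 treated, 3 vehicle), black bars are group means, and the cross is a library without the region, placed past the end of the list at 32828. PCDHGC3 ranks lie between 4594 and 9152 in treated and between 14608 and 17227 in vehicle libraries, and the γ region after the PCDHGC5 start shows the opposite order.

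The remaining C-type genes and the outlying PCDHB1 had no start region in any equal-size list. PCDHGC4, which encodes protocadherin γC4, had a region near its start only in the deposited list of vehicle 8, at a fold of 3.29 and from -1001 to -598 bp of the start. PCDHGC5 had none in any deposited list. PCDHB1, which lies apart from the other β genes, had 1 in treated 7 alone, at a fold of 2.72. PCDHA13 had a region in 6 of 7 deposited lists, all but that of vehicle 7, with folds of 8.18, 4.57, 4.41 and 3.6 in treated libraries 6 to 9 and 5.36 and 4.93 in vehicle libraries 6 and 8. It entered the equal-size list in vehicle 6, at rank 22901, and lay outside it in treated 6, at rank 35589. In treated 8 its fold equalled the limit of the list, 4.41, and only the order of ties left it out, so its presence in vehicle 6 alone rests on that order.

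The alternate promoters appeared in the weaker part of the longer lists. In the deposited lists, 17, 17, 6 and 4 members had a start region in treated libraries 6 to 9 and 5, 3 and 14 in vehicle libraries 6 to 8, in the order of list length apart from a tie of the 2 longest. The difference of means, 3.67 members, was smaller than the spread within either group (SD 6.98, n = 4, and 5.86, n = 3). Of the 22 members with a deposited start region somewhere, 15 had it in a larger share of treated than of vehicle libraries and 4 in a larger share of vehicle libraries, against 32.7% and 5.06% of the 12889 genes so tested. Of the 3 longest lists, 2 are from treated libraries. No member was in all treated and no vehicle libraries, a pattern shown by 0.132% of the genes tested. Of the 22 members, 3 were in all 7 libraries (62.3% of the genes tested were). The other 31 of the 53 members (58.5%) had no region even here, against 18.5% of the 15818 genes with a placed start.

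With list lengths matched, treated libraries had no consistent excess of members with a start region. This comparison was chosen after the lists were seen. With the 3 longest lists cut to the 159902 regions of highest fold, 12 members had a start region in treated 6, 12 in treated 7 and 14 in vehicle 8. With the next 3 lists cut to 53063 regions, the numbers were 6 in treated 8, 4 in treated 9 and 5 in vehicle 6. Over all genes, treated libraries were ahead in both sets. The numbers were 11913 and 12101 against 11771 in the longest lists, and 10203 and 10590 against 9337 in the next. With 1 vehicle library in each such set, no test of the difference was run.

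**Figure D3:**
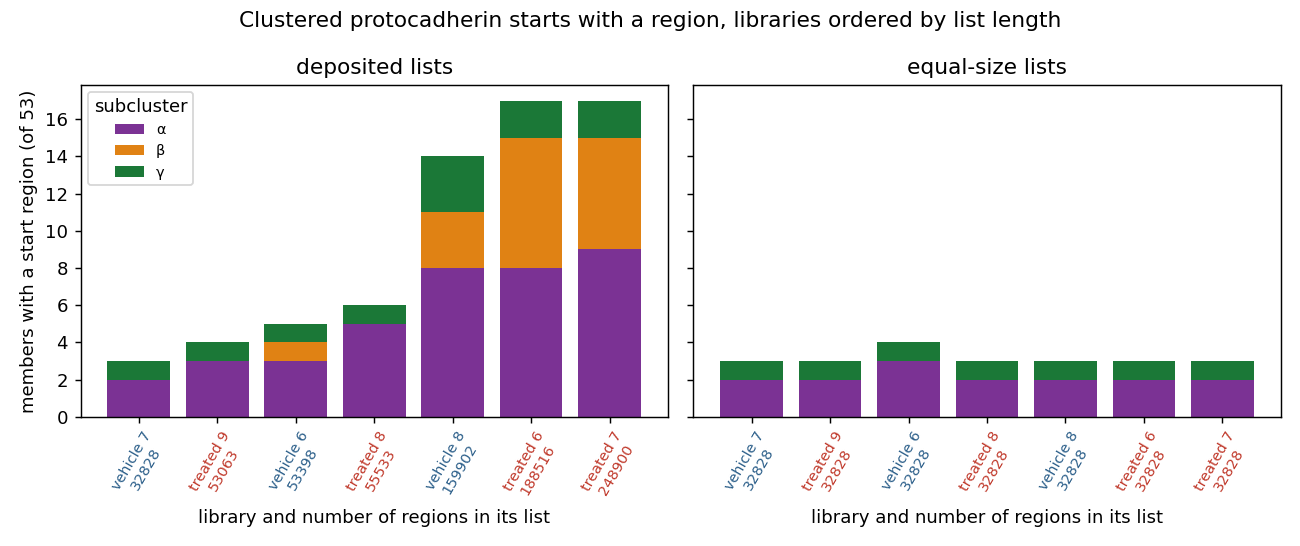
Number of the 53 members with a region within 1 kb of their start (bars, stacked by α, β and γ) in each library, ordered by list length, in the deposited lists (left) and the equal-size lists of 32828 regions (right). Red names are treated and blue names vehicle libraries. The left bars climb from 3 in vehicle 7 to 17 in treated 6 and treated 7, and the right bars stay at 3 or 4.

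The subclusters differed in how they filled as lists grew. Of the 15 α genes, 8, 9, 5 and 3 had a deposited start region in treated libraries 6 to 9 and 3, 2 and 8 in vehicle libraries 6 to 8. Of the 16 β genes, these numbers were 7, 6, 0 and 0 against 1, 0 and 3, so β genes were reached almost only in the 3 longest lists, PCDHB4 in vehicle 6 being the exception. Of the 22 γ genes, they were 2, 2, 1 and 1 against 1, 1 and 3, and 18 γ genes had none in any library. Within the 3 longest lists cut to one length, α gave 6, 6 and 8 members in treated 6, treated 7 and vehicle 8, β gave 5, 5 and 3, and γ gave 1, 1 and 3.

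Members reached in several deposited lists, named after their values were seen, included PCDHA4 and PCDHA8 (4 libraries each) and PCDHA5, PCDHB2, PCDHB3, PCDHB4 and PCDHB11 (3 each). The PCDHA4 region was seen in treated 6, 7 and 8 and vehicle 8, at folds of 4.09, 4.15, 4.41 and 5.34. Its summit kept to one place, 515, 547, 597 and 552 bp after the gene start. PCDHA8 was seen in the same 4 libraries at folds of 3.14, 4.43, 3.3 and 6.57, with summits spread over 35, 132, 382 and 511 bp after the start. The PCDHB3 region, at folds of 4.72 and 4.0 in treated 6 and 7 and 4.93 in vehicle 8, had its summit near the start, at -43, 3 and -80 bp. All of these folds lay below the 8.81 (treated 6), 6.0 (treated 7) and 9.04 (vehicle 8) that the equal-size lists required in the libraries concerned, apart from PCDHA4 in treated 8, which tied with the limit of 4.41 there.

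A window at either end of a gene gave another count, through a single region. With that window, 24 members were present in every equal-size list (66.1% of the 14055 genes tested were) and 25 in vehicle 6. No member was in all treated and no vehicle libraries (0.818% of genes were) or the reverse (0.0213%). The count is high because all 22 γ genes share a downstream end at 141512975 and all 7 libraries have a region within 1000 bp of it. The region covers that end in treated 6 and treated 7, and in the other libraries it begins past it. That region (chr5:141512342-141515255 over all libraries) is also near the downstream end of DIAPH1, a formin gene on the other strand that ends at 141515021, and reaches that end in treated 6, treated 7 and treated 9. Its fold was 24.5, 23.6, 9.36 and 14.4 in treated and 14.7, 11.2 and 30.0 in vehicle libraries, and its ranks overlapped between the groups (6339, 3093, 5945 and 1964 against 3178, 3202 and 3722). The 15 α genes share a downstream end at 141012347, where no deposited list had a region. Either-end counts therefore describe 1 shared place for the γ genes and add none for the α genes.

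Across the locus from 50 kb before PCDHA1 to 50 kb after the γ end (chr5:140736140-141562975, 827 kb), the equal-size lists held 13, 12, 18 and 11 regions in treated and 17, 12 and 13 in vehicle libraries. The means, 13.5 ± 3.11 (SD, n = 4) and 14 ± 2.65 (SD, n = 3), differed by less than the spread between libraries. Overlapping regions of the 7 libraries were joined to 18 consensus regions, and 10 were found in every library, a pattern shown by 22.9% of the 62507 consensus regions of the genome. None was in all treated and no vehicle libraries (0.781% of consensus regions were) and none in all vehicle and no treated (0.37%). In Fisher's exact test 0 consensus regions passed 0.05 after Benjamini-Hochberg adjustment, while 488 and 231 reached the smallest p, 0.0286.

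**Figure D4:**
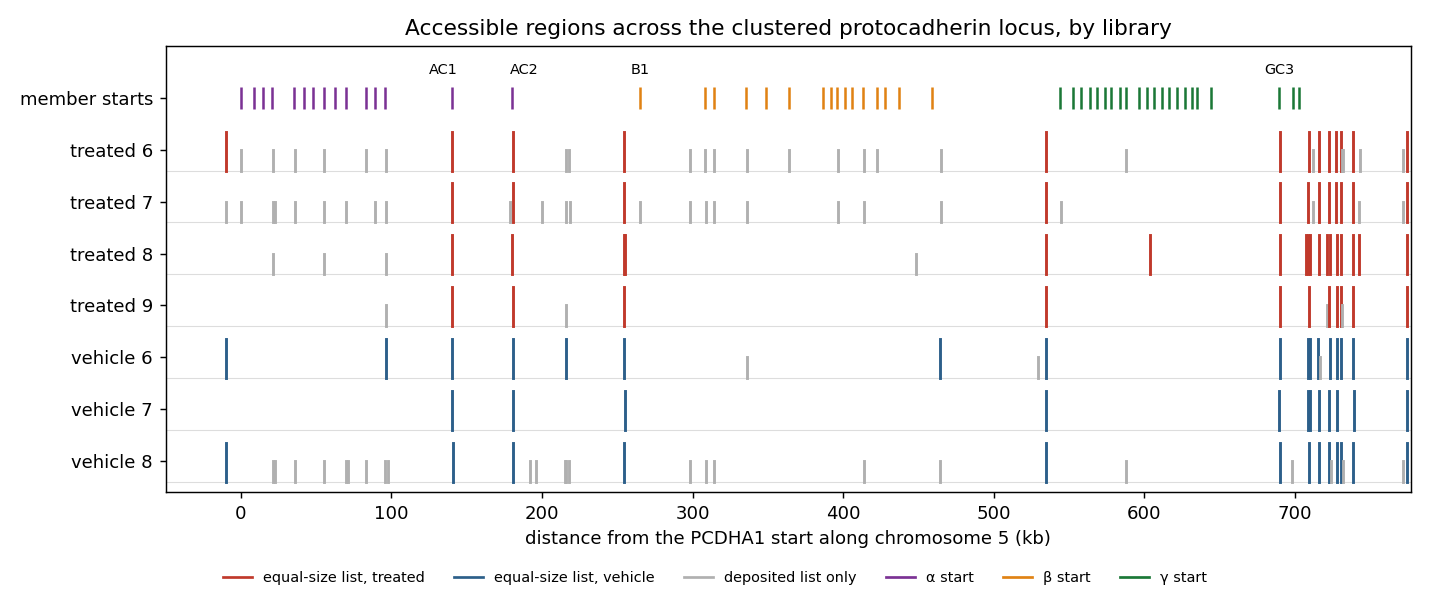
Accessible regions across the locus by library (rows), placed by distance from the PCDHA1 start in kb. Tall red or blue bars are in the equal-size list of a treated or vehicle library, short grey bars only in the deposited list, and the top row marks the member starts by subcluster. No tall bar stands at the orange β starts, and tall bars gather from the GC3 start onward.

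The strongest region of the locus was not at a member. It lay in the interval between the α and β subclusters (chr5:141039679-141041772 over all libraries), between the α end and PCDHB1 and 9602 bp before the PCDHB1 start, in no gene body. Its fold was 39.9, 31.5, 15.4 and 14.4 in treated and 30.2, 17.4 and 41.9 in vehicle libraries, the largest of the locus in 6 libraries and tied in treated 9 with the region at the γ end. Its ranks were 1786, 1151, 1311 and 2039 in treated and 313, 729 and 1452 in vehicle libraries, which overlap (exact two-sided permutation test, p = 0.143, 0.776 after adjustment over 62507 consensus regions). In vehicle 6 it was among the 1% of strongest regions, at 0.953% of the equal-size list. Enhancers are known between and beyond these subclusters, and whether this region is one of them was not analysed here.

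The β subcluster itself, 198 kb from the PCDHB1 start to the PCDHB15 end, held no region in any equal-size list. Its deposited regions numbered 8, 7, 1 and 0 in treated and 1, 0 and 4 in vehicle libraries. The only region between β and γ that was present in all 7 libraries lay at the start of TAF7, a subunit gene of the general transcription factor TFIID that is no protocadherin, at ranks 2390 to 8442. SLC25A2, a mitochondrial ornithine carrier gene in the same interval, had no region at either end in any deposited list.

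In the equal-size lists, the γ subcluster had almost no region over its alternate genes and separate regions from PCDHGC3 to its shared end. The starts of PCDHGC4 and PCDHGC5, within that stretch, had no region in any equal-size list. In the equal-size lists, the first part of the subcluster, from PCDHGA1 to PCDHGA12, held 1 region, in treated 8 (chr5:141389472-141389818, fold 4.96), 1774 bp after the PCDHGB4 start. From PCDHGC3 onward, regions were present in all 7 libraries at PCDHGC3, at chr5:141493434-141496892, at chr5:141507095-141510447 and at the shared end. The 2 named by position lie inside the bodies of all 22 γ genes, 4353 and 18014 bp after the PCDHGC5 start. The first stood at ranks 6335, 4715, 5171 and 4791 in treated and 3786, 4588 and 4431 in vehicle libraries (exact two-sided permutation test, p = 0.0857, 0.776 after Benjamini-Hochberg adjustment). The second stood at ranks 9489, 10478, 5374 and 4051 against 2917, 4793 and 5953 (p = 0.257 in the exact test), and both sets overlap.

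Between those 2 regions, chr5:141501528-141502315, at 12447 bp after the PCDHGC5 start, stood nearer the top of the list in vehicle libraries. Its ranks were 4388, 10282 and 7416 in vehicle libraries 6 to 8 and 21694, 22636 and 27381 in treated libraries 6 to 8, and the deposited list of treated 9 had no region there. Without overlap, the exact two-sided permutation test gave p = 0.0286, its smallest value, and 0.724 after Benjamini-Hochberg adjustment over 62507 consensus regions. Such a separation toward vehicle libraries was found for 1.45% of consensus regions and toward treated libraries for 2.5%. The fragments stacked at its summit numbered 37, 54 and 8 in treated libraries 6 to 8 and 19, 11 and 54 in vehicle libraries. Divided by the background of the library, the enrichment was 17.0, 9.01 and 9.81 in treated and 38.6, 18 and 37.7 in vehicle libraries. The groups did not overlap on this measure, but treated 6 and vehicle 7 were close, at 17.0 and 18. The share of consensus regions that separate on it was not counted, and this region was picked for its ranks. The 11 fragments of vehicle 7 have an exact 95% Poisson interval of 5.49 to 19.7 for counting error only. The fold did overlap, since vehicle 7, at 7.45, lay below treated 6 and below treated 7, at 7.86. Vehicle 6 and vehicle 8, at 13.4 and 22.6, lay above every treated library. By rank, the region thus moved the opposite way from PCDHGC3, which lies before it in the same subcluster, and neither rank difference passed adjustment over all features.

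Downstream of the γ end, 2 regions in the body of DIAPH1 were present in all 7 libraries (chr5:141524245-141525615 and chr5:141560155-141561317). Their ranks overlapped between the groups, with p = 1.0 and p = 0.4 in the exact permutation test.

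The promoters of the members were poor in CG dinucleotides, the sites of DNA methylation, apart from the open ones. Sequences at the gene start were matched for 46 of the 53 members, and CG pairs were counted over 300 bases, from 250 before to 50 after the start. PCDHAC1, PCDHAC2 and PCDHGC3 had 27, 15 and 18 CG pairs, while the other 43 members had a median of 7 and a range of 2 to 23. All 13792 protein-coding promoters matched in the same way had a median of 22, those with a region in all 7 libraries 27, and those with none 5. PCDHGC4, with 23, and PCDHGB6, with 16, were as rich in CG as the open members and had no region in any equal-size list. Of all promoters with at least 15 CG pairs, 66.3% had a region in all 7 libraries, against 16.3% of those with fewer. Members with a region only in some deposited lists had the same median, 7, as members with none.

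**Figure D5:**
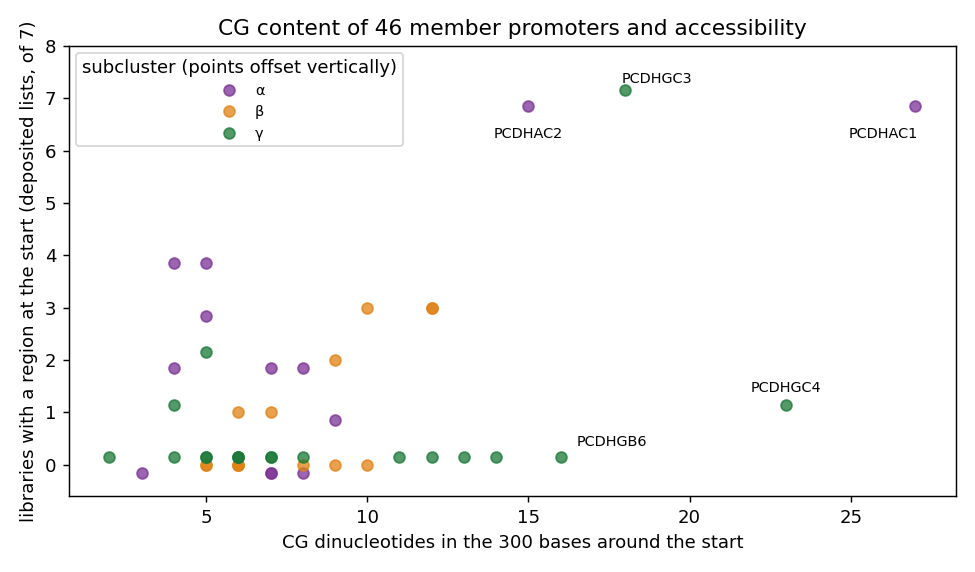
CG dinucleotides in the 300 bases around the start (horizontal axis) against the number of deposited lists with a region at the start (vertical axis, of 7) for the 46 matched members, coloured by subcluster and offset vertically to show overlapping points. PCDHAC1, PCDHAC2 and PCDHGC3 lie at 7 libraries with 15 to 27 CG pairs, and PCDHGC4, with 23, lies at 1 library.

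The letters of the promoters differed between the subclusters. The core CGCT occurred on either strand in 45 of 46 member promoters (97.8%) and in 81.3% of all promoters, since 4 letters recur often. On the strand of the gene and with its first base 100 to 10 bases before the start, a window chosen after the letters were seen, it occurred in 44 of 46 members (95.7%) and in 33.8% of all promoters. Of the matched members, PCDHA9 had no CGCT, and PCDHB8 had it only after the start. Longer strings around the core, also chosen after the letters were seen, divided the subclusters. GATGTCGCT, on either strand, was in 9 of 13 α promoters, no β or γ promoter and 0.145% of all promoters, and it can be read in PCDHA8 above, where its CGCT begins 41 bases before the start. GGTGGCGCT, which contains the motif GGCGCT, was in 13 of 14 β promoters, no α or γ promoter and 0.711% of all, as in PCDHB3 above. PCDHB1 was the β gene without it, and neither string was in PCDHAC1, PCDHAC2, PCDHGC3 or PCDHGC4.

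The motif GGCGCT on either strand was in 13 of 14 β, 1 of 13 α and 8 of 19 γ promoters, and in 28.3% of all promoters. Letters of the CTCF motif were rare in these windows. AGGGGGCGC was in no member and in 2.53% of all promoters, a longer and looser form of the CTCF motif was in 1 member (PCDHB9) and in 2.2% of all, and a longer and stricter form was in no member and in 0.37% of all. These forms overlap in letters and were searched on both strands. TATAAA was in 6 of 46 members (13.0%) and 10.0% of all promoters. A match is a string of letters and not a measured binding site.

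Of the genes that act on protocadherin promoters, the loop genes were open at their starts and the silencing genes only in part. All 10 loop genes with a placed start, which include CTCF, had a start region in all 7 equal-size lists. Of 8 silencing genes with a placed start, 6 had one in every treated library and 4, 3 and 5 had one in vehicle libraries 6 to 8. Over all genes with a placed start, the share was likewise higher in treated libraries, 62.5% against 56.6%. The silencing genes present in all 7 lists (37.5%, against 47.6% of all genes) were SMCHD1, DNMT1 and DNMT3B. The first is a chromatin silencer and the others are DNA methyltransferases. WIZ and EHMT2 had no start region in any equal-size list. EHMT1, which encodes a histone H3 lysine methyltransferase, was in all 4 treated and no vehicle libraries, as were 0.858% of all genes tested (exact Fisher p = 0.0286), though the deposited lists had it in 1 vehicle library as well. Of 11 downstream partners with a placed start, among them kinases and actin regulators, 9 to 11 had a start region in each library.

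Related adhesion genes outside the clusters had start regions more often than the members. Of all 15818 genes with a placed start, 47.6% had one in all 7 equal-size lists and 30.8% in none. Of 16 non-clustered protocadherin family genes with a placed start, 10 (62.5%) had a start region in all 7 lists. Another 2 (12.5%), CDHR3 and PCDH11X, had none in any. The treated libraries had 13, 12, 12 and 12 of the 16 and the vehicle libraries 11, 10 and 13, which overlap. Of 15 classical cadherin and catenin genes, 6 were in all 7 (40.0%) and 5 in none (33.3%), near the shares of all genes. CDH8, which encodes a neuronal type II cadherin, was in all 3 vehicle and no treated libraries, as were 0.0274% of all genes tested (exact Fisher p = 0.0286), though 3 deposited treated lists had it.

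The HOX genes, another set of clustered genes, also mostly had no start region in the equal-size lists. Of 21 HOX genes with a placed start, none had a region in all 7 equal-size lists (47.6% of all genes did). No list held 13 of them (61.9%, against 30.8% of all genes). The treated libraries had 3, 3, 1 and 5 of the 21 and the vehicle libraries 3, 2 and 2. Deposited counts of the HOX genes, 15, 17, 4 and 6 against 5, 2 and 11, were highest in the 3 longest lists. HOXA13 had a start region in all 4 treated and no vehicle equal-size lists, as did 0.858% of all genes tested. So did PDGFRB, a marker of mesenchymal cells, and each of the 2 genes had 2 vehicle libraries in the deposited lists. These lists are given as counts beside the members, and no difference between lists was tested.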

How the data were processed

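Nuclei from detergent-lysed cells were tagged with Tn5 and the DNA amplified by PCR, per the labels' protocols. The submitters' processing notes list Bowtie2, FastQC, Picard and hg38 and give no versions. Peaks were called with MACS2 in each library separately, per the file headers. The settings of the caller and any Tn5 shift of the reads are not stated. The deposited lists give each peak's position, a score, the fold enrichment as a ratio, −log10 values of p and q, and the summit offset, all computed by the authors' peak caller. The largest deposited q-value was 0.0384. Fold was used to rank regions within a list. The folds fit the form (pileup + 1) divided by (background + 1) with 1 background per library, which was assumed. With the step between folds fitted to the same folds, 100% of them gave a whole pileup within 0.02. That shows even spacing and not the form itself. Pileup and background, 0.492 to 5.99 fragments, were recovered under this form. The total number of reads is not known.

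Only chromosomes 1 to 22 and X were used, so 29 to 54 regions per library dropped out. Equal-size lists held the 32828 regions of highest fold, with 1133 to 9516 regions tied at the limit and ordered by −log10 p, width and position. No 2 libraries shared more than 0.0238% of the regions of the shorter list by exact position. A gene start is the upstream end of its RefSeq extent (GRCh38.p14). Strand came from the table of promoter sequences, which holds 15812 of the genes, and 6 members without an entry were placed on the + strand of the other 47. Presence is an overlap of at least 1 bp with 1000 bp around the start or either end. Exons were not analysed here.

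Presence was tested with Fisher's exact test and ranks with an exact two-sided permutation test over all 35 assignments of the libraries, with a library that lacks a region set past the end of its list. Benjamini-Hochberg adjustment ran over all features with a region. The rank tests at gene starts and consensus regions were added after the lists were seen. Motifs were searched on both strands. The members and comparison lists were chosen with earlier results of these data known. Named were members with an equal-size start region, C-type genes and PCDHB1, other genes of the locus, list genes found in every library of 1 treatment and in none otherwise, and consensus regions in all 7 libraries, and others are said to be named after their values were seen. Overlaps were tested on simulated data and equalled those of bedtools 2.31.1. Python 3.11.15, numpy 2.4.6, pandas 2.3.3, scipy 1.17.1 and matplotlib 3.10.9 were used. Alternatives were the deposited lists, other list lengths and rankings, windows, summits, a stricter q-value, overlap rules, pairing and leaving out each library.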

Additional observations from a re-analysis of the deposited data

How the results depend on the processing

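The member and locus differences below are means of treated minus vehicle libraries. In the equal-size lists they were -0.333 members at either end, -0.333 members at their start and -0.5 regions of the locus. With the deposited lists they became 3.83, 3.67 and 4.5, and with a −log10 q of at least 5 and no equal size 1.67, 1.67 and 1.33. The start count gave 0.667 in lists of 16414 regions and 0.0833 at equal covered length. The either-end count gave 6.67 with a window of 500 bp and -7.33 with 100 bp each side of summits, which move the γ genes together through their shared end. With all tied regions kept, chosen after seeing the data, both member counts gave 0.167, and with equal size within the 3 longest lists, also chosen then, the start count gave -2.0.

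The numbers of genes present at an end in all treated and no vehicle libraries (115) or the reverse (3) became 22 and 0 with the deposited lists and 1 and 0 with the −log10 q limit. They were 110 and 5 with summits, and 931 and 85 genes reached the smallest p of the rank test. For consensus regions, 488 and 231 became 296 and 11, then 33 and 0 with the −log10 q limit, and 172 and 54 with an overlap of at least 0.5 of the consensus region. The cause of these shifts was not tested.

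Leaving out each library in turn gave -0.5 to 0.0 for both member counts and -2.0 to 1.0 for locus regions. Gene counts ranged from 128 to 385 and from 4 to 18, and consensus counts from 591 to 1440 and from 269 to 857, as fewer libraries must meet the rule. The mean rank difference stayed between -9390 and -7650 for PCDHGC3 and between 16542 and 20253 for the γ region ahead in vehicle libraries, and the smaller sets cannot reach the threshold. With a replicate block over differentiations 6 to 8, treated 9 unused, the differences were -0.333, -0.333 and 0.333, the gene counts 159 and 4 and the consensus counts 738 and 272. Same-numbered libraries did not deviate together (correlations of -0.0563, -0.00969 and -0.0719 over 4771 genes). The largest correlation, 0.214, was of treated 6 with vehicle 8. Because the lists do not match in depth, these correlations cannot show whether the numbers pair the libraries. Library depth limits every count of closed genes, since a start without a region is one not detectable at that depth.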

Other observations

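A few regions of the locus stood out in vehicle 6. The region at the PCDHA13 start, chr5:141001918-141002335 in the bodies of the α genes and chr5:141250636-141250879 between β and γ were in the equal-size list of vehicle 6 and of no other library. The last of these had a fold of 8.04 and rank 12912 in vehicle 6, and ranks 87968, 72866 and 59541 in the deposited lists of treated 6, treated 7 and vehicle 8. A region 9497 bp before the PCDHA1 start (chr5:140775921-140776643) was in the equal-size lists of treated 6 and of vehicle libraries 6 and 8, at ranks 28213, 12409 and 27024. Treated 8 alone had equal-size regions at chr5:141389472-141389818 among the γ alternate genes and at chr5:141528934-141529179 in DIAPH1, at folds of 4.96 and 5.51. All of these regions entered the exact two-sided permutation test on ranks. The lowest p among them was 0.257, for the region before the PCDHA1 start, and 0 consensus regions passed 0.05 after Benjamini-Hochberg adjustment.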
